A study of Mus musculus with 9 samples.

Results

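Open chromatin was examined at 6 genes that encode ligands of the TNF superfamily, Tnfsf4, Tnfsf9, Cd70, Tnfsf15, Tnfsf10 and Tnfsf13b, among 21883 protein-coding genes. The members were the ATAC-seq peaks in the RefSeq span of each gene or within 10 kb of it, which merged into 52 regions of 194768 in all. The cells were dendritic cells grown from C57Bl/6 bone marrow for 9 days in 20 ng/mL GM-CSF, given retrovirus on day 2 and sorted for CD11c and for human CD8, the reporter of the vector. The lists came from cells with the Pcgf6 overexpression vector (OE) and its control vector (mi8), and from cells with the hairpin RNA vector against Pcgf6 (HP109) and its control vector (LMP8). Each of the 4 peak lists stood for both libraries of its vector and was called against 1 input library. There was therefore no replicate spread, and no test between conditions was possible. In these bulk samples, fewer cells with an open site and less opening per cell cannot be told apart.

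Ligands of this superfamily are trimeric proteins of the cell surface, some of them shed, that signal through TNF receptor superfamily members and TRAF adaptors to NF-kB or to cell death. On dendritic cells the products of Tnfsf4 (OX40L), Tnfsf9 (4-1BBL) and Cd70 give costimulatory signals to T cells after antigen recognition, and these ligands are typically induced when the cells mature. The product of Tnfsf15 (TL1A) acts on T cells and innate lymphocytes, that of Tnfsf10 (TRAIL) triggers apoptosis and is induced by interferon, and that of Tnfsf13b (BAFF) sustains B cells. Pcgf6, the protein raised or lowered by the vectors, defines the repressive Polycomb complex PRC1.6, which the DNA-binding subunits Mga, Max and E2F6 bring to chromatin. The series asks how Pcgf6 bears on dendritic cell activation.

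For 3 of the 6 genes a promoter sequence was at hand (RefSeq, build GRCm38.p6, the assembly of mm10). They are shown because each lay under a peak in all 4 lists over its whole length. Each run is the 250 bases before a transcription start, 5′ to 3′ on the strand of the gene. In Tnfsf10 and Tnfsf15 the capitals mark the stretch from the first to the last of the 4 peak summits, and in Tnfsf13b they mark the 2 motif matches described next.
Tnfsf10, chr3:27316827-27317076, plus strand: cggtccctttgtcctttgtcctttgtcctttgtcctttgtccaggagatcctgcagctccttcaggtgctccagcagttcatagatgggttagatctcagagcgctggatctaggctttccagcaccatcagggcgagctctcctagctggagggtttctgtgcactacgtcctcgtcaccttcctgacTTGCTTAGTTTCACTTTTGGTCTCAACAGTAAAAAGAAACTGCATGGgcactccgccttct
Tnfsf15, chr4:63745060-63745309, minus strand: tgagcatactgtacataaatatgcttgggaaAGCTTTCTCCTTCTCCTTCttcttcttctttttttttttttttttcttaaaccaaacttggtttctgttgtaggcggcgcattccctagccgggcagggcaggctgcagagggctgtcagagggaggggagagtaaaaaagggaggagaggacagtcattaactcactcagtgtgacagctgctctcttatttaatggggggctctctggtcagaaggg
Tnfsf13b, chr8:10006383-10006632, plus strand: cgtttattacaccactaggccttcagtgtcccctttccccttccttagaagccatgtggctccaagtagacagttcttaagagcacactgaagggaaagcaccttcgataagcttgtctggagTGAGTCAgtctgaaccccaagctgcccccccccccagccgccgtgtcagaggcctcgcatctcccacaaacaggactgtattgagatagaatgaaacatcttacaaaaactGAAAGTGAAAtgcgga

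The Tnfsf10 summits lay 61 bases before the start in OE, 20 in mi8, 15 in HP109 and 29 in LMP8, so all of them fell within 47 bases of each other. The Tnfsf15 summits lay 219 bases before the start in OE, mi8 and LMP8 and 201 in HP109, within a pyrimidine-rich stretch of 19 bases. The Tnfsf13b summits were more spread, 38 bases before the start of the window shown in OE, 5 in mi8, 129 in HP109 and 125 in LMP8. Tnfsf13b has another annotated start, at 10006467, and the same summits lay 128, 161, 37 and 41 bases after it in that order. Of the 250 bases before that other start, 137 were under a peak in all 4 lists. On both strands 8 motifs were searched. They were the E-box CACGTG bound by Max and Mga, an E2F6-type site GCGGGAA, the core of the interferon response element (GAAA, any 2 bases and GAAA), the STAT site TTCNNNGAA, the AP-1 site TGANTCA, the PU.1 site GAGGAAG, the TATA box TATAAA and the NF-kB consensus. Matches were found in 1 of the 4 promoter windows of these genes, the Tnfsf13b window shown, where TGAGTCA began 127 and GAAAGTGAAA 16 bases before the start. Of all 32851 promoter windows of the same length, 6.75% held the AP-1 site and 2.98% the interferon element core. The E-box stood in 6.02% of them and the E2F6-type site in 3.82%, and in none of the 4 windows of these genes.

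Across the 6 genes, the OE list held 33 peaks, mi8 49, HP109 53 and LMP8 40. Per gene this was 0 to 8 peaks in OE, 3 to 14 in mi8, 2 to 14 in HP109 and 1 to 11 in LMP8, around a median over all protein-coding genes of 3, 5, 5 and 4 in that order. Of the 52 regions, 30 (57.7%) were present in all 4 lists, against 47.1% of all regions. The next most frequent state was presence in mi8 and HP109 alone, with 10 regions (19.2%, against 7.86% of all regions). These are the 2 longest lists, with 170976 and 170103 peaks, against 111510 for OE and 140735 for LMP8. The share over all regions comes from the same lists, and the cause of the higher share at these genes was not tested. A further 5 regions (9.62%, against 9.89% of all) were in mi8 alone and 3 (5.77%, against 13.97%) in every list but OE. HP109 and LMP8 alone held 2 (3.85%, against 1.42%), HP109 alone 1 (1.92%, against 8.49%) and OE alone 1 (1.92%, against 1.28%). By position, 10 of 13 regions within 1000 bp of a gene end were in all 4 lists (76.9%), against 63.5% at the ends of all protein-coding genes. Inside the genes 10 of 18 were (55.6%), against 44.1%, and in the flanks 10 of 21 (47.6%), against 46.2%. Below and above a gene refer, in what follows, to lower and higher coordinates on the chromosome.

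**Figure D1:**
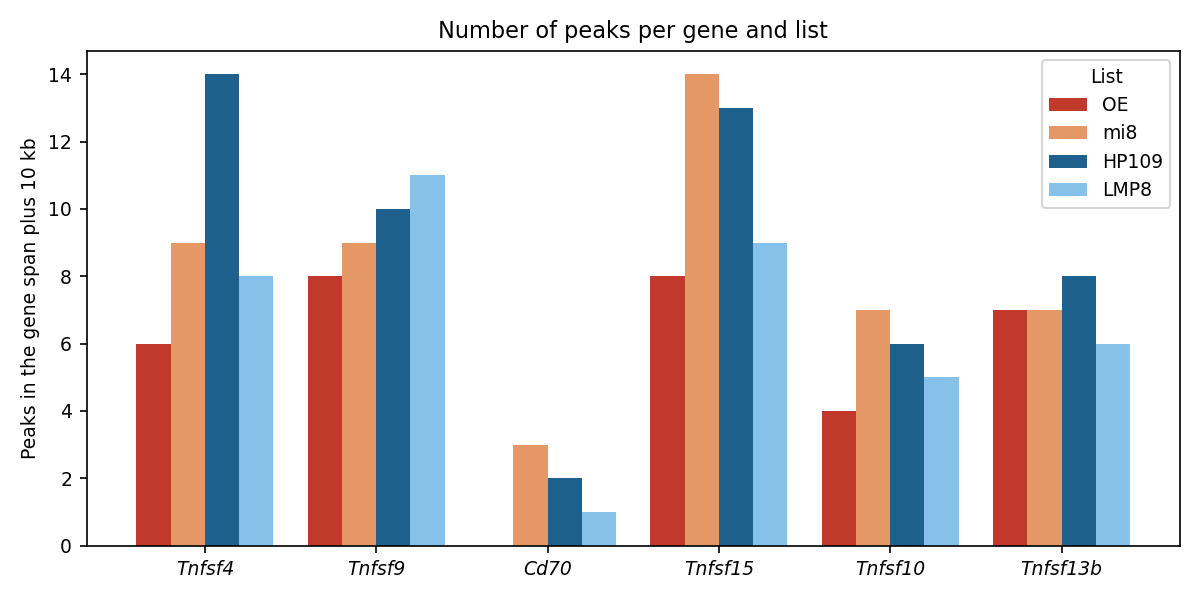
Number of peaks (vertical axis) in the span of each gene plus 10 kb on each side, for the OE, mi8, HP109 and LMP8 lists. Cd70 has 0, 3, 2 and 1 peaks in that order, and the largest counts are 14, at Tnfsf4 in HP109 and at Tnfsf15 in mi8.

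Strength was read in more than 1 way. The fold over the input background and the −log10 q are the authors' own values, and they rank peaks within 1 list only. The summit pileup is the number of reads stacked at the summit, recovered from those values on the assumption that the fold was made with 1 read added to pileup and background. The names of the lists hold the word downsample. Which libraries this covers, and to what depth, is not given in the sources used here, so these may not be counts of the full libraries. The pileup was compared mainly within a vector pair, because the background pileup expected without enrichment was close there, at 2.00 reads in OE and 1.95 in mi8, and at 1.35 in HP109 and 1.42 in LMP8. Over all regions shared by a pair, the median log2 ratio of pileups was −0.34 for OE over mi8 and 0.47 for HP109 over LMP8, and ratios below are given relative to these medians. Between the 2 controls, whose backgrounds were less close, the median was 0.63 for mi8 over LMP8 and was used in the same way. Intervals are exact 95% intervals that cover counting error only.

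**Figure D2:**
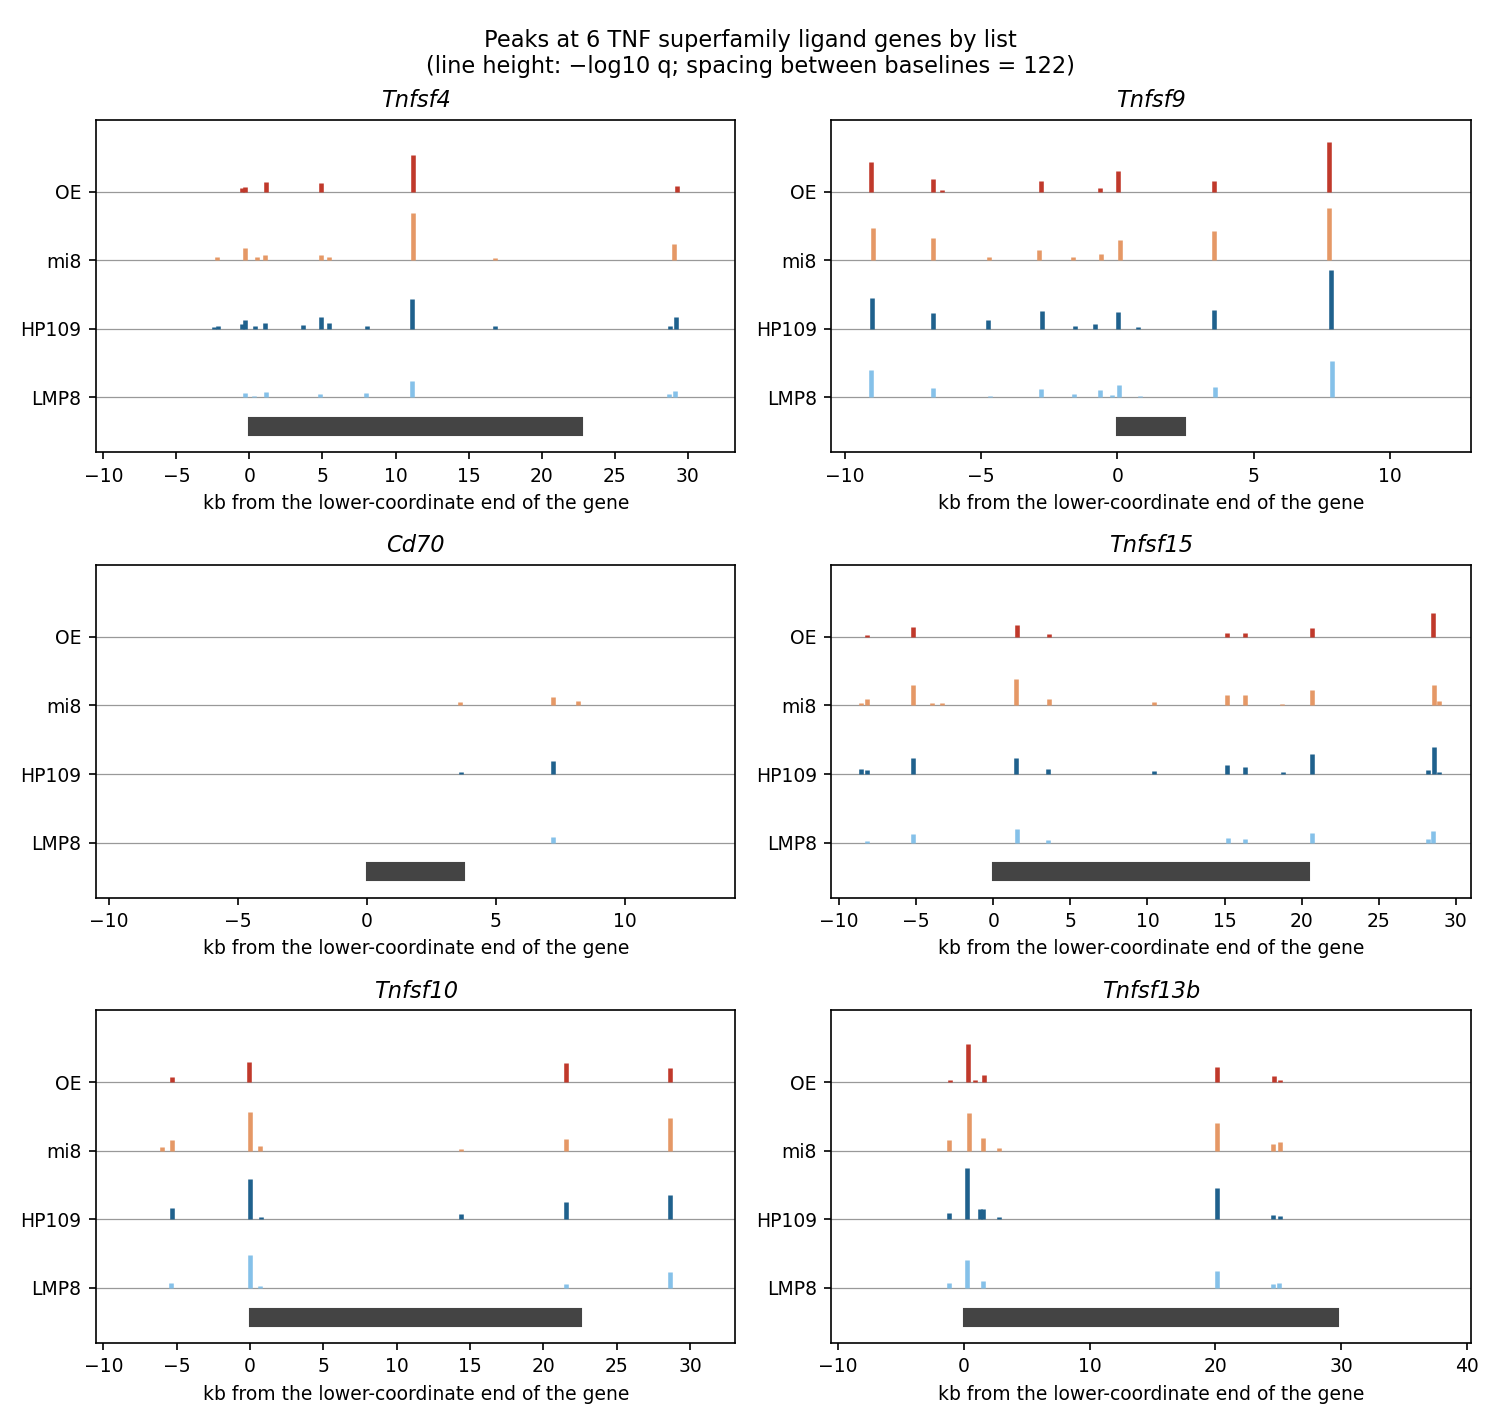
Peak summits at each gene, in kb from the end of the gene with the lower coordinate (horizontal axis), with 1 track per list from OE at the top to LMP8 at the bottom; line height is the authors' −log10 q and the dark bar is the gene. Tnfsf9 and Tnfsf15 are dotted with peaks on both sides in every list, while the OE track of Cd70 is empty.

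Cd70, whose product binds CD27 on T cells, was the single member with no peak in OE. Its span (chromosome 17, 57145997 to 57149777, mm10) and flanks held 3 peaks in mi8, 2 in HP109 and 1 in LMP8. A gene-end region at 57149497 to 57149793 had a −log10 q of 6.61 in mi8, with 14 reads at the summit, and 3.89 in HP109, with 9 reads. OE and LMP8 had no peak there. At equal list length no list kept a peak at this gene end, and HP109 kept none at a −log10 q of at least 5. Among all protein-coding genes, 6.77% had a gene-end peak with mi8 but not with OE, 2.69% with HP109 but not with LMP8, and 1.28% were in both states. The strongest region, at 57153071 to 57153312 and 3.41 kb above the gene, had a −log10 q of 15.6 in mi8, 24.0 in HP109 and 9.25 in LMP8, with 27, 27 and 15 reads, and no peak in OE. The mi8 list alone had 1 further region, at 57154124 to 57154229 with a −log10 q of 8.75. Of all genes with 3 mi8 peaks in their window, 6.67% had no OE peak there, and of all genes 22.9% had none. All 3 Cd70 regions also lie in the long noncoding RNA gene Gm33566, and the lists do not say to which gene a peak belongs. Relative to the median of shared regions, the region above the gene had a log2 ratio of 0.38 for HP109 over LMP8, with a counting interval from −0.58 to 1.39.

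Tnfsf9, the gene of 4-1BBL, which costimulates CD8 T cells, lies on the same chromosome (57105287 to 57107758) and had peaks throughout. It held 8 peaks in OE, 9 in mi8, 10 in HP109 and 11 in LMP8. Its strongest region in every list was at 57112742 to 57113571, 5.40 kb above the gene. The −log10 q there was 88.6 in OE, 92.8 in mi8, 105 in HP109 and 64.2 in LMP8, which ranked it in the top 4.06%, 3.53%, 3.08% and 1.96% of its list. The pileups there were 77 reads in OE and 79 in mi8, and 79 in HP109 and 56 in LMP8. A region over the lower gene end, at 57105008 to 57106171, had 42 reads in OE and 46 in mi8, and 33 in HP109 and 27 in LMP8. Both of these sites were therefore open in every list. At the upper end, 57108670 to 57109168, the pileups were 28 in OE and 52 in mi8, a log2 ratio of −0.55 relative to the median (interval −1.27 to 0.14), and 35 in HP109 and 23 in LMP8.

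Of the 9 mi8 peaks of Tnfsf9, 2 were absent from OE (22.2%, against 40.2% of all mi8 peaks). The one at 57100470 to 57100660, below the gene, had a −log10 q of 5.14 in mi8, 15.9 in HP109 and 2.06 in LMP8. The HP109 pileup was 24 reads, against 13 in LMP8. The other, at 57103617 to 57103790, was weak in all 3 lists that had it, with a −log10 q between 5.04 and 6.06. The single region of all 52 that only OE had, at 57098793 to 57098922, also lay below Tnfsf9, with a −log10 q of 2.70. In total 8 of the 10 regions here also lie in the long noncoding RNA gene Gm11110, which overlaps the lower end of Tnfsf9.

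Tnfsf4, the gene of OX40L, a ligand that sustains activated T cells, spans 161395438 to 161418206 on chromosome 1. It held 6 peaks in OE, 9 in mi8, 14 in HP109 and 8 in LMP8. With the 111510 strongest peaks of each list, so that list length was equal, these counts were 6, 4, 6 and 6 in that order, and the surplus in HP109 was gone. The strongest region in every list lay inside the gene, at 161406346 to 161406843. Its −log10 q was 65.9 in OE, 83.5 in mi8, 53.1 in HP109 and 28.8 in LMP8, with pileups of 62, 73, 64 and 41 reads in that order. The lower gene end, at 161394685 to 161395490, was weaker, with 17 reads in OE and 29 in mi8, and 21 in HP109 and 14 in LMP8. No list had a peak within 1000 bp of the upper end.

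Inside Tnfsf4 close to the lower end, 2 shared regions had more reads in OE than in mi8. At 161396416 to 161396638 the pileups were 28 in OE and 17 in mi8, a log2 ratio of 1.06 relative to the median (interval 0.14 to 2.02) that exceeded 98.7% of shared regions. Without subtracting that median, the interval was −0.20 to 1.68. HP109 and LMP8 had 15 and 17 reads there. At 161400248 to 161400474 OE had 23 reads and mi8 16 (0.86, interval −0.12 to 1.88), and HP109 had 24 and LMP8 12 (0.53, interval −0.53 to 1.66). Of its 14 HP109 peaks, 5 were absent from LMP8 (35.7%, against 23.9% of all HP109 peaks), and 1 at equal list length. The strongest of these, at 161400822 to 161400986, had a −log10 q of 9.80 in HP109 and 4.92 in mi8.

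Tnfsf15, the gene of TL1A, a ligand of the death domain receptor DR3, spans 63724600 to 63745059 on chromosome 4 and is read from its upper end. It held 8 peaks in OE, 14 in mi8, 13 in HP109 and 9 in LMP8, and at equal list length 8, 9, 7 and 7 in that order. Every OE peak had a counterpart in each of the other lists, and 8 of the 14 regions were in all 4 lists. The promoter region, at 63745018 to 63745733, had a −log10 q of 15.9 in OE, 28.4 in mi8, 34.9 in HP109 and 16.6 in LMP8, with 37, 51, 46 and 33 reads in that order. A region near the lower end, at 63725958 to 63726320, was the strongest in mi8 and LMP8. OE had 28 reads there and mi8 48, and HP109 had 31 and LMP8 28. A region 7.93 kb before the start, at 63752704 to 63753274, was the strongest in OE and HP109, with 55 reads in OE and 50 in mi8, and 50 in HP109 and 28 in LMP8.

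Relative to the median, 7 of the 8 shared regions of Tnfsf15 had a lower pileup in OE than in mi8, with a median log2 ratio of −0.38, and the region before the start was the exception (0.48, interval −0.10 to 1.06). For HP109 over LMP8, 6 of 8 lay above the median and the gene's median was 0.05. No counting interval of a Tnfsf15 region left out the median of all shared regions in either pair. Between the 2 controls, all 8 shared regions lay above the median for mi8 over LMP8, with a gene median of 0.22. The 6 regions present in mi8 and absent from OE had a −log10 q of 2.53 to 8.69 in mi8, and the 4 present in HP109 and absent from LMP8 had 3.75 to 9.14 in HP109. As shares of the gene's peaks these were 42.9% in mi8, against 40.2% of all mi8 peaks, and 30.8% in HP109, against 23.9%. The long noncoding RNA gene Gm42294 spans the whole of this window.

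Tnfsf10, the gene of TRAIL, spans 27317077 to 27339665 on chromosome 3 and is read from its lower end. It held 4 peaks in OE, 7 in mi8, 6 in HP109 and 5 in LMP8. The promoter region, at 27316612 to 27317868, was the strongest of the gene in all 4 lists. Its −log10 q was 36.5 in OE, 69.8 in mi8, 71.5 in HP109 and 58.2 in LMP8, and it stood in the top 23.5%, 9.42%, 10.2% and 3.49% of its list. The pileups were 41 in OE and 64 in mi8 (−0.30 relative to the median, interval −0.90 to 0.29), and 59 in HP109 and 52 in LMP8 (−0.29, interval −0.85 to 0.28). A second, weaker peak in this region was present in mi8, HP109 and LMP8 with a −log10 q of 8.65 in mi8 and had no counterpart in OE.

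At the other end of Tnfsf10, the region at 27338484 to 27338728 had relatively more reads with either Pcgf6 vector than with its control. OE had 39 reads there and mi8 28, a log2 ratio of 0.82 relative to the median (interval 0.08 to 1.57) that exceeded 96.7% of shared regions. Without subtracting that median, the interval was −0.26 to 1.23. HP109 had 32 and LMP8 13 (0.83, interval −0.14 to 1.88), which exceeded 98.9%. The region 6.03 kb beyond this end, at 27345565 to 27345818, had 39 reads in OE and 63 in mi8 (−0.35), and 46 in HP109 and 35 in LMP8 (−0.08).

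Tnfsf13b, the gene of BAFF, spans 10006229 to 10036000 on chromosome 8 and is read from its lower end. It held 7 peaks in OE, 7 in mi8, 8 in HP109 and 6 in LMP8, and 6 of its 7 regions were in all 4 lists. At equal list length HP109 kept 5 of its 8 peaks. The promoter region, at 10006304 to 10007205, was the strongest in every list. Its −log10 q was 68.6 in OE, 67.5 in mi8, 90.8 in HP109 and 49.9 in LMP8, with pileups of 71 in OE and 75 in mi8, and 79 in HP109 and 52 in LMP8. A region inside the gene, at 10026161 to 10026514, had 33 reads in OE and 50 in mi8, and 49 in HP109 and 32 in LMP8. Toward the upper end, at 10031202 to 10031452, OE had 13 reads and mi8 30 (−0.87, interval −1.93 to 0.12), and HP109 had 11 and LMP8 18 (−1.18, interval −2.41 to −0.02). This was among the lowest ratios in both pairs, with 5.29% of shared regions below it for OE over mi8 and 0.486% for HP109 over LMP8. Without subtracting the median, the interval for HP109 over LMP8 was −1.94 to 0.45 at this region. The single region not in all lists, at 10008999 to 10009138, had a −log10 q of 4.12 in mi8 and 4.77 in HP109.

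**Figure D3:**
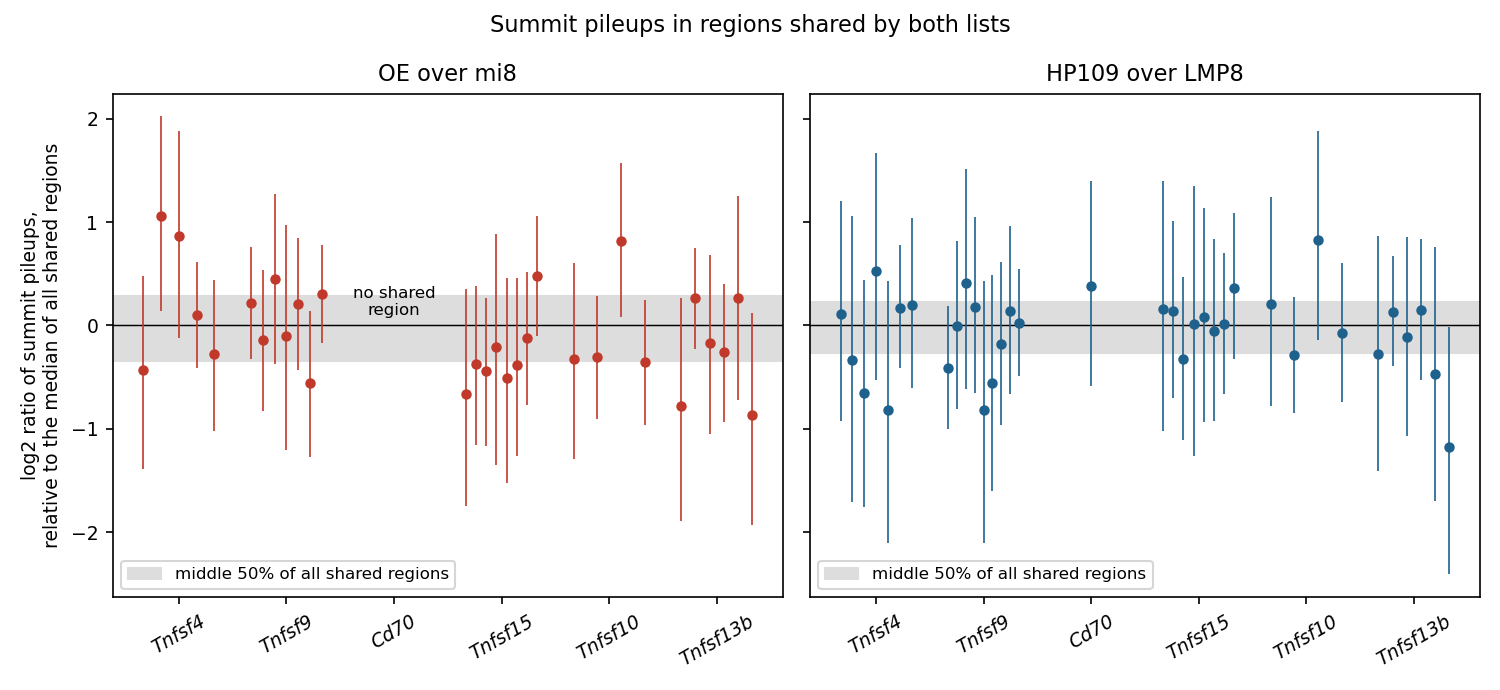
Log2 ratio of summit pileups relative to the median of all shared regions (vertical axis) for each region of the 6 genes present in both lists, OE over mi8 at left and HP109 over LMP8 at right; vertical bars are exact counting intervals and the grey band is the middle 50% of all shared regions. Most points lie within 1 log2 unit of the median and most bars cross it.

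Over all 6 genes, the median of 30 shared regions was −0.19 relative to all shared regions for OE over mi8, with 19 below and 11 above. For HP109 over LMP8 the median of 35 was 0.02, with 16 below and 19 above. Between the 2 controls, the median of 33 for mi8 over LMP8 was 0.14, with 11 below and 22 above. The counting interval left out the median of all shared regions for 2 of 30 regions (6.67%) between OE and mi8, against 11.1% of all shared regions. Between HP109 and LMP8 it did so for 1 of 35 (2.86%), against 1.78%. The shares at these genes were thus close to those of the whole genome, and the named regions are descriptions of these libraries.

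Taken by pairs of lists, each share of absent peaks at the 6 genes had a counting interval that held the background share. The patterns over all 4 lists were less alike, with 19.2% of regions in mi8 and HP109 alone, against 7.86% of all regions. None of these regions had a −log10 q above 9.80 in either list, most lay at Tnfsf15 or Tnfsf4, and this share has no interval. Of 33 OE peaks, 1 (3.03%, interval 0.0767 to 15.8) was absent from mi8, against 4.57% over the whole OE list. OE had no counterpart of 19 of the 49 mi8 peaks (38.8%, interval 25.2 to 53.8), against 40.2% over the whole mi8 list. LMP8 had none for 12 of the 53 HP109 peaks (22.6%, interval 12.3 to 36.2), against 23.9%, and of 40 LMP8 peaks 1 (2.5%, interval 0.0633 to 13.2) was absent from HP109, against 8.06%. Between the 2 controls, 15 of 49 mi8 peaks (30.6%, interval 18.3 to 45.4) were absent from LMP8, against 24.9%, and 2 of 40 LMP8 peaks (5.0%, interval 0.611 to 16.9) were absent from mi8, against 5.98%. Peaks absent from 1 of 2 lists were thus also found between the 2 controls.

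The peaks that were absent from a paired list were mostly weak ones. By −log10 q, all 8 mi8 peaks below 5 and 10 of 12 from 5 to 10 were missing in OE, but only 1 of 11 from 10 to 20 and none of 18 above that. Over all mi8 peaks, 85.5%, 70.7% and 39.0% of these first 3 classes were absent, then 9.66% from 20 to 40 and 0.393% at 40 or above. The 1 peak of the third class was that above Cd70, whose −log10 q of 15.6 was above the mi8 median of 14.4. In HP109, 7 of 9 peaks under 5 and 5 of 17 from 5 to 10 were absent from LMP8, and none of the 27 stronger ones. Over all HP109 peaks 67.1% and 45.0% of the first 2 classes were absent, then 13.3% from 10 to 20, 1.08% from 20 to 40 and 0.00513% at 40 or above.

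**Figure D4:**
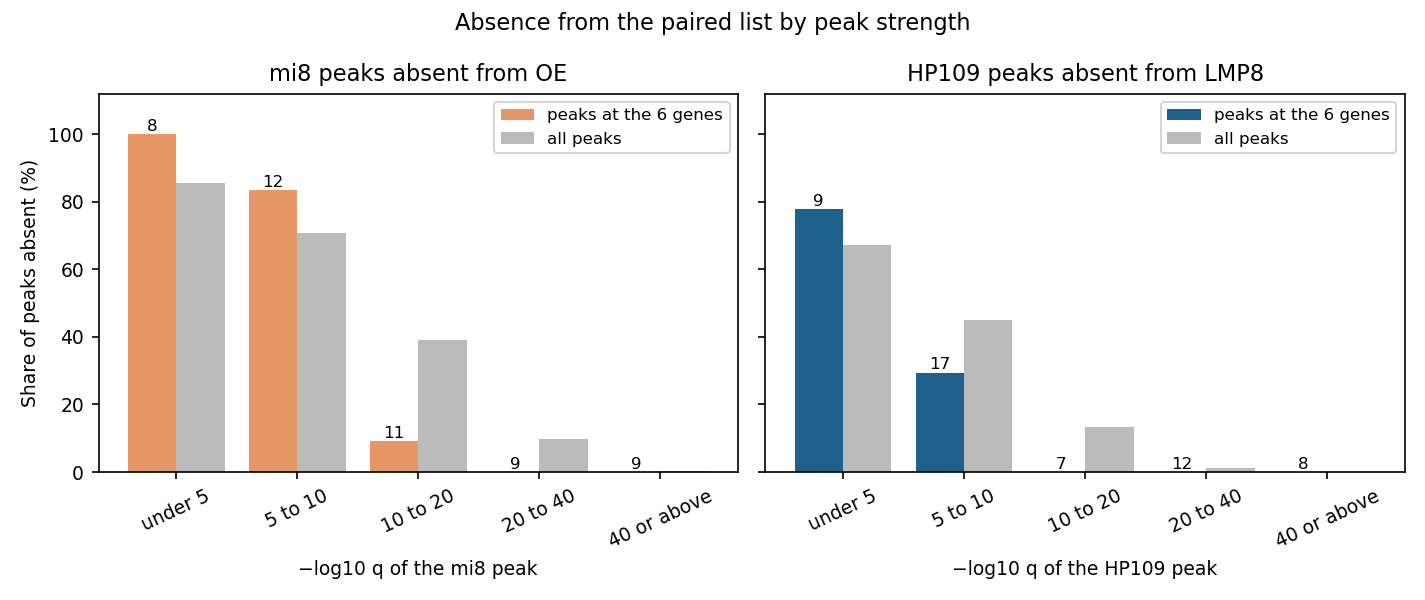
Share of peaks absent from the paired list (vertical axis, %) by −log10 q of the peak, for mi8 peaks absent from OE at left and HP109 peaks absent from LMP8 at right; coloured bars are peaks at the 6 genes, with their number above, and grey bars are all peaks. The coloured bars reach 0 from 20 in mi8 and from 10 in HP109.

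A gene-end peak was present at 5 of the 6 genes in OE, 6 in mi8, 6 in HP109 and 5 in LMP8, against 58.2%, 64.8%, 64.3% and 62.4% of all protein-coding genes in that order, and Cd70 was the gene without one in OE and LMP8. Of 12 other ligand genes of the superfamily, 10 had a gene-end peak in every list, with Fasl and Tnfsf11 lacking one throughout. Their windows, of which some overlap, held 58 peaks in OE, 110 in mi8, 94 in HP109 and 83 in LMP8. Of the 8 receptor genes of the members, 4 had a gene-end peak in OE, 6 in mi8, 5 in HP109 and 5 in LMP8. The 2 that had one with mi8 but not with OE were Tnfrsf25, the receptor of TL1A (−log10 q 19.9 in mi8, 6.86 in HP109 and 6.79 in LMP8), and Tnfrsf13c, a BAFF receptor (2.84 in mi8 and no peak in HP109 or LMP8). The share of all genes in this state was 6.77%. All 6 TRAF adaptor genes had a gene-end peak in all 4 lists.

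Markers were read as open gene ends, which do not show expression. Of 14 dendritic cell markers, 12 had a gene-end peak in OE, 13 in mi8, 14 in HP109 and 13 in LMP8. Itgax, the gene of CD11c, had a −log10 q of 70.5 in OE, 85.7 in mi8, 95.2 in HP109 and 51.2 in LMP8. Cd209a had a gene-end peak in HP109 alone, and Ciita in every list but OE. Gene ends of other lineages were open in part. The T cell gene Cd3e and the granulocyte gene Mpo had no gene-end peak in any list. Cd3d, the B cell gene Cd79a and the neutrophil genes S100a8 and Camp had one in all 4. For T cells 2, 3, 4 and 3 of 7 markers had a peak in that order, for B cells 2, 4, 5 and 4 of 6, for neutrophils 2, 4, 5 and 3 of 7, and for mast cells and basophils 1, 2, 2 and 2 of 6. Erythroid markers gave 2, 3, 4 and 3 of 5, stromal markers 2, 3, 3 and 2 of 5, and macrophage markers 4, 5, 5 and 5 of 6. OE had the lowest or equal lowest count in each list of markers, as it had the fewest peaks overall; their part in the results at the 6 genes was not tested.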

How the data were processed

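ATAC-seq libraries came from dendritic cells carrying 1 of 4 vectors, with 2 libraries per vector and 1 input library. Per the submitters' processing notes, BWA, Picard and MACS2 were used on build mm10; for versions, thresholds, read shifting and pooling, the sources used here give nothing. Per the labels, the authors deposited 1 peak list per vector, called against the input. The lists give the authors' score, the fold over the input background as a ratio, and the −log10 p and −log10 q of each summit.

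Chromosomes 1 to 19, X and Y were used; no interval occurred more than 1 time in a list. Peaks belonged to a gene when any base lay in its RefSeq span (GRCm38.p6, the assembly of mm10) or within 10 kb. Peaks were called absent from another list when they overlapped none of its peaks by 1 bp. Gene ends were taken with 1000 bp on each side. Peaks of the 4 lists were merged into regions. The summit pileup was solved from the authors' deposited fold and −log10 p, with 1 read added to pileup and background; a whole number matched within 0.001 for 100% of peaks in each list, and the steps were tested on simulated data. Intervals are exact (Clopper-Pearson, 95%) and cover counting error only. Each list pools both libraries of a vector, so no test between conditions was possible. Within each gene the text names the strongest peak of each list, gene-end peaks, and regions that differ within a vector pair with a −log10 q of at least 10; weaker regions, and those picked for their pileup ratio, were chosen after their values were seen. The genes and lists were chosen with earlier results of these data known. Computation used Python 3.11.15 with scipy 1.17.1 and pandas 2.3.3.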

Additional observations from a re-analysis of the deposited data

How the results depend on the processing

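The share of the genes' peaks absent from the paired list moved outside its counting interval in a few settings. With an overlap of 50% of both peaks, it was 18.2% for OE peaks without an mi8 counterpart (22.7% over the whole OE list) and 22.5% for LMP8 peaks absent from mi8 (17.8% over the whole list). With a −log10 q of at least 5 in both lists, it was 0% for OE peaks absent from mi8 (0 of 28, against 4.95% of all) and 0% for LMP8 peaks absent from HP109 (0 of 33, against 5.63%), and with a window of 2.5 kb it was 0% for OE peaks (0 of 22). The main shares here were 1 of 33 OE peaks and 1 of 40 LMP8 peaks, with intervals that begin above 0. Loss of that 1 peak therefore always counts as a move. With equal numbers of peaks per list (111510), 12.1% of mi8 peaks were absent from OE, against 19.4% of all mi8 peaks, 12.1% of mi8 peaks from LMP8, against 13.3%, and 15.6% of LMP8 peaks from HP109, against 13.2% of all. The causes were not tested. Without centring, the median log2 pileup ratio was −0.53 for OE over mi8 and 0.49 for HP109 over LMP8. Scaled by the lowest background instead, it was −0.57 and 0.56. The counting intervals of single regions that left out the median all held 0 without centring. Others then left out 0. Examples are the upper end of Tnfsf9 for OE over mi8 (−1.61 to −0.20) and the upper end of Tnfsf10 for HP109 over LMP8 (0.33 to 2.35). The pileup alternatives and those between the controls were chosen after seeing the data. In the other 46 combinations of setting with a share, a gene-end count or a median, shares stayed within their interval, counts within 1.5 times and medians within the middle 50% of the genes' regions. Of 120 combinations of setting with a gene's number of peaks in a list, 34 moved by over 1.5 times. At Cd70, OE had no peak under any setting but the 25 kb window, which held 2 OE peaks and 7 mi8 peaks; its gene-end peak was not kept in mi8 or HP109 with equal numbers, nor in HP109 at a −log10 q of at least 5. No paired analysis was possible because each list pools both libraries of a vector. Read totals are unknown, and the low pileups limit the ratios.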
